A study of Mus musculus with 2 samples.

Results

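The genes described are the 10 that make and use miRNAs in the mouse: Drosha, Dgcr8, Xpo5, Dicer1, Ago1, Ago2, Ago3, Ago4, Tnrc6a and Tnrc6b. They were measured through fragments of their mRNAs that had been sequenced together with the miRNAs. A fragment was counted for a gene when a sequenced tag of 20 to 30 nt was identical, in sense, to annotated transcripts of exactly 1 protein-coding gene. All 10 genes had such tags, 635 distinct ones out of 457707 for 11911 protein-coding genes. The Ia low library held 174 of them and the Ia high library 478.

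Small RNA came from spleen cells of C57BL/6J mice that had been enriched with CD11c microbeads, stained with anti-Ia-FITC and sorted into CD11c+Ia low and CD11c+Ia high cells, with a stated purity above 95%. Ia is the surface MHC class II molecule, and both populations are called dendritic cells in the labels, which name no treatment, age or further genotype. Each population gave 1 library, so no difference has a replicate check and no p-value is given. The study profiled miRNAs in the 2 populations, and reads from mRNAs are a by-product of its libraries.

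miRNAs are cut from hairpins in longer transcripts. In the nucleus the RNase Drosha and its RNA-binding partner Dgcr8 release the hairpin, exportin-5 (Xpo5) carries it to the cytoplasm, and the RNase Dicer1 trims it to a duplex. An Argonaute protein (Ago1 to Ago4) keeps one strand as its guide, and the scaffold proteins Tnrc6a and Tnrc6b link the Argonaute to the enzymes that shorten and decap the target mRNA. Ago2 is the Argonaute that can itself cut a fully matched target. Drosha and Dgcr8 also cut a hairpin at the start of the Dgcr8 mRNA, a feedback known from mouse and human cells.

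A single sequence within the machinery genes stood apart from all others by its reads. It lies in the Dgcr8 mRNA, inside the annotated hairpin of Mir1306, and the set below shows the hairpin, its annotated products and the sequenced tag. The hairpin and mature sequences are from RefSeq (GRCm38.p6), on the minus strand at chr16:18284239-18284317. In the hairpin, capitals mark the stretch of the most read tag. In the other lines, capitals mark the seed, bases 2 to 8, with which a miRNA pairs to its targets.
Mir1306 hairpin: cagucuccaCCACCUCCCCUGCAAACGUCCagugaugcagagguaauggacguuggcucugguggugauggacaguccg
mmu-miR-1306-5p: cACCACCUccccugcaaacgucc
mmu-miR-1306-3p: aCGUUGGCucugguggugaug
most read Mir1306 tag: cCACCTCCcctgcaaacgtcc

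The most read tag of each other gene, as the larger sum of its shares of the mRNA reads of both libraries, is shown to make plain what was counted. These tags are pieces of mRNA of 22 to 29 nt, shown in lower case because none was searched for a motif.
Drosha: tgtttgcacatgctcctctgacc
Xpo5: ttgacgcagaacatggaaagaatct
Dicer1: gtacggttggctgaaagagtggtagctct
Ago1: ttgagacttaactactgaccatgtgggtt
Ago2: acccccaccgtggctctgtaggcgc
Ago3: ttaagtagaagcctggcgttact
Ago4: gcctggagtctgtgatgtgaagaact
Tnrc6a: tatctcagtttagcgtagatct
Tnrc6b: gtaatcttggggtctggaaatctgac

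In GRCm38 coordinates, the Drosha tag lies in coding exon 12 of 35 (chr15:12861739-12861761, plus strand), the Xpo5 tag in coding exon 5 of 32 (chr17:46208180-46208204, plus strand), the Dicer1 tag in coding exon 13 of 27 (chr12:104709814-104709842, minus strand) and the Tnrc6b tag in coding exon 8 of 25 (chr15:80879170-80879195, plus strand). The 4 Argonaute tags lie in the 3' UTR of the last exon. They are at chr4:126436712-126436740 for Ago1, chr15:73104655-73104679 for Ago2, chr4:126336461-126336483 for Ago3 and chr4:126491009-126491034 for Ago4, all on the minus strand. The Tnrc6a tag (chr7:123180016-123180037, plus strand) matches only a transcript other than the longest coding one. Of these 9 tags, the Ago2 tag (33 reads in Ia low and 7 in Ia high) and the Ago4 tag (7 reads in Ia low and 11 in Ia high) were in both libraries. The Dicer1 tag had 22 reads in Ia low and 0 in Ia high, and the other 6 were likewise read only in Ia low, where the median mRNA tag had 10 reads, against 5 in Ia high.

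The Ia low library held 13739811 reads of 758783 tags and the Ia high library 16388303 reads of 1185709 tags. Tags of single protein-coding genes numbered 142394 in Ia low and 343784 in Ia high, taking 18.96% of all reads in Ia low and 20.02% in Ia high, and each gene's tags were divided by these totals. A count of 0 tags would allow up to 2.11 per 100000 in Ia low and 0.873 in Ia high, the value of 3 tags. Intervals are exact (Clopper-Pearson) 95% intervals. Intervals and floors cover counting error only, since PCR copies could not be recognised (no molecular identifiers are named) and overlapping tags of a gene can share a source. The labelled cell type was checked against 8 dendritic cell genes, and 6 of them were at least 2-fold lower in Ia low. Among them, Flt3 had 6 tags in Ia low and 163 in Ia high, Zbtb46 had 1 in Ia low and 56 in Ia high, and 3 are class II genes of the kind on which the cells were sorted. All 8 had tags in both libraries. Of 5 cDC1 genes, 3 were at 0 in Ia low (99 tags in Ia low and 1160 in Ia high in sum). Of 7 Ly6C-low monocyte genes, 6 were at least 2-fold higher in Ia low (1669 tags in Ia low and 1591 in Ia high in sum). The 2 genes of dividing cells had 7 tags in Ia low and 240 in Ia high. Macrophage genes differed among themselves, with 5 Vcam1 tags in Ia low and 134 in Ia high, 2 Mrc1 tags in Ia low and 43 in Ia high, 5 Spic tags in Ia low and 15 in Ia high, and 70 Adgre1 tags in Ia low and 103 in Ia high, an Adgre1 ratio of 1.64 (1.19 to 2.24). In Ia low there were 3 B cell, 0 T cell, 2 NK cell, 0 erythroid and 0 platelet gene tags, and in Ia high there were 16, 32, 0, 1 and 2 in the same order. All 32 T cell gene tags in Ia high were of Tcf7, and the T cell genes Cd3e and Cd3g had 0 tags in both libraries.

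The machinery was set beside the miRNAs that it makes. Reads inside miRNA hairpins were 19.6% of all reads in Ia low and 35.9% in Ia high, a ratio of 0.548. All reads include those longer than 30 nt, 14.3% in Ia low and 1.63% in Ia high, which were not searched for miRNAs. Of the reads of 18 to 30 nt, 51.0% in Ia low and 40.6% in Ia high matched no annotated transcript. The miRNA ratio thus depends also on how the rest of each library is made up. The 10 machinery genes together had 122 tags per 100000 mRNA tags in Ia low and 139 in Ia high, a ratio of 0.879 (interval 0.735 to 1.05). As reads per 1000000 of all reads they took 139 in Ia low and 164 in Ia high. There were 1416 miRNA reads for each machinery read in Ia low and 2193 in Ia high. Of the machinery reads, 239 in Ia low and 275 in Ia high lay inside the Mir1306 hairpin and count as miRNA reads too. So do 27 reads in Ia high inside the Mir5113 hairpin of Tnrc6b. The 2 ratios are on different scales, mRNA tags for the machinery and all reads for the miRNAs. On the scale of mRNA tags the machinery interval lies above the miRNA ratio and includes 1. With reads counted for both, the miRNA ratio was again the lower, since Ia low had fewer miRNA reads per machinery read. With the machinery tags divided by all reads, the interval of their ratio was 0.363 to 0.518, below the miRNA ratio and below 1. Divided by miRNA reads, it was 0.663 to 0.945, also below 1. Both divisions set distinct tags over reads, and the median mRNA tag had 10 reads in Ia low and 5 in Ia high. They therefore do not give the order in like units.

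No machinery gene passed the rule for a difference, which asked for a ratio of 2-fold or more with an interval that excluded 1. Of 7132 protein-coding genes with 10 or more tags in both libraries together, the rule called 443 higher in Ia low (6.21%) and 607 lower (8.51%), 14.7% in either direction. The count for the machinery was 0 of 10, which as a share allows up to 30.8% by its exact interval. Among the 5839 genes with as many tags as the machinery genes have, 14 to 211, 16.3% were called. The median log2 ratio of the 10 genes was 0.04, with 6 above 0 and 4 below, beside a median of -0.14 over all 7132 genes. Setting that median to 0 would add 0.14 to every log2 ratio given here, and scaling to all reads gives the machinery a median of -0.98. In bulk libraries, a smaller share of cells with a given mRNA and less of that mRNA per cell cannot be told apart, and neither can mRNA level and how readily an mRNA breaks into short pieces. Markers of other cell types moved between the libraries as given above, and their part in the machinery values was not tested.

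**Figure D1:**
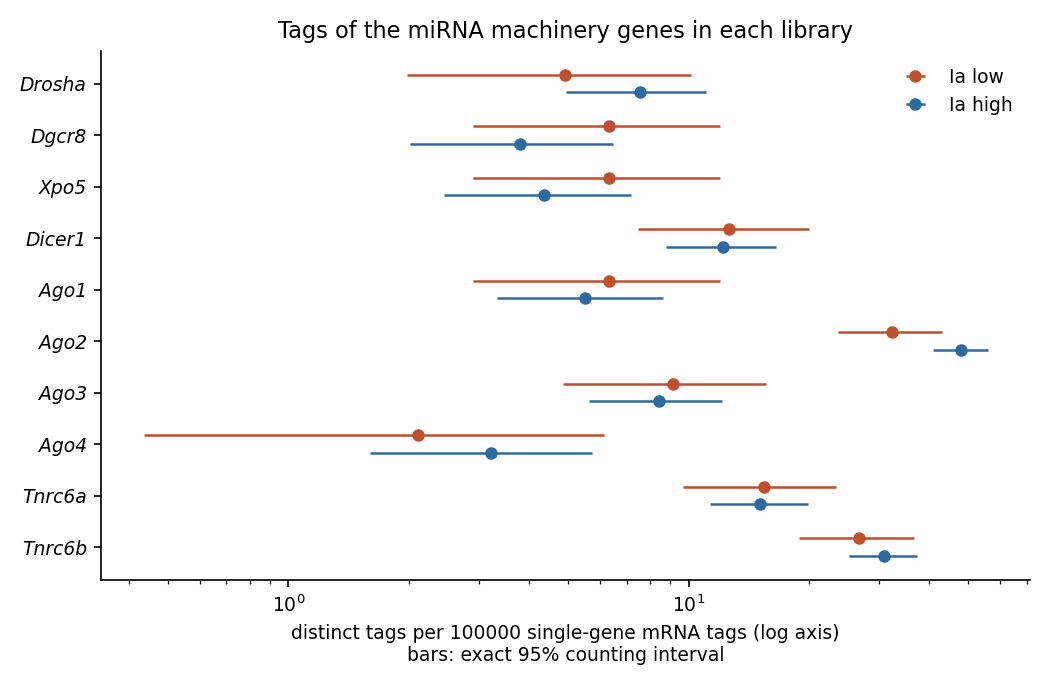
Distinct tags of each machinery gene per 100000 single-gene mRNA tags (log axis) in the Ia low library (upper point of each pair) and the Ia high library (lower point). Bars are exact 95% counting intervals of 1 library each. Ago2 had the most tags in both libraries (32.3 in Ia low and 48.0 in Ia high) and Ago4 the fewest (2.11 and 3.20).

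The nuclear step gave few tags. Drosha, on chr15:12824815-12935291 (plus strand), had 7 tags in Ia low and 26 in Ia high. That is 4.92 per 100000 in Ia low and 7.56 in Ia high, a ratio of 0.650 (0.238 to 1.54), so a 2-fold difference lies inside the interval on the lower side. The Drosha values turn with tag length. The log2 ratio was 0.39 for tags of 20 to 24 nt and -1.47 for tags of 25 to 30 nt, and both intervals included 1. Of the Drosha tags, 4 in Ia low and 19 in Ia high lay in the coding sequence, which makes up most of its longest coding transcript (4122 of 4570 nt).

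Dgcr8, on chr16:18253948-18289246 (minus strand), had 9 tags in Ia low and 13 in Ia high, but 311 reads in Ia low and 300 in Ia high. Its ratio of tags was 1.67 (0.631 to 4.23). No other machinery gene had a tag with more than 33 reads, whereas a single Dgcr8 tag had 218 reads in Ia low and 224 in Ia high. That tag is the Mir1306 tag shown above. The hairpin occupies nt 524 to 602 of the 4320-nt transcript, in exon 2 of 14 and inside the coding sequence (nt 425 to 2746), 1.83% of the transcript. It held 239 of the 311 Dgcr8 reads in Ia low and 275 of the 300 in Ia high.

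The reads inside the hairpin were arranged as the arms of a miRNA. On the 5p arm, 2 tags with 239 reads in Ia low and 3 tags with 250 reads in Ia high began at the same base. These were 76.8% of the Dgcr8 reads in Ia low and 83.3% in Ia high. On the 3p arm there were 0 reads in Ia low and 25 reads of 3 tags in Ia high, within 1 nt of the annotated 3p start. The 5p start lies 2 nt downstream of the RefSeq start of mmu-miR-1306-5p, and the most read tag ends at the same base as the mature sequence. The tag therefore carries a seed other than that of the annotated miRNA, as the capitals above show. The 5p arm had 88.6 reads per 1000000 miRNA reads in Ia low and 42.5 in Ia high, and 17.4 per 1000000 of all reads in Ia low and 15.3 in Ia high. The difference in the 5p arm thus depends on the scale, since the whole miRNA share of the libraries differed as given above.

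Outside the hairpin, Dgcr8 had 7 tags in Ia low (72 reads) and 7 in Ia high (25 reads), a ratio of 2.41 (0.723 to 8.07). The interval includes 1 and spans a range too wide to place the Dgcr8 mRNA in either direction. The ratio computed with the hairpin and the ratio without it both lay above 1 when scaled to mRNA tags. Scaled to all reads, the log2 ratio of all Dgcr8 tags was -0.28.

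**Figure D2:**
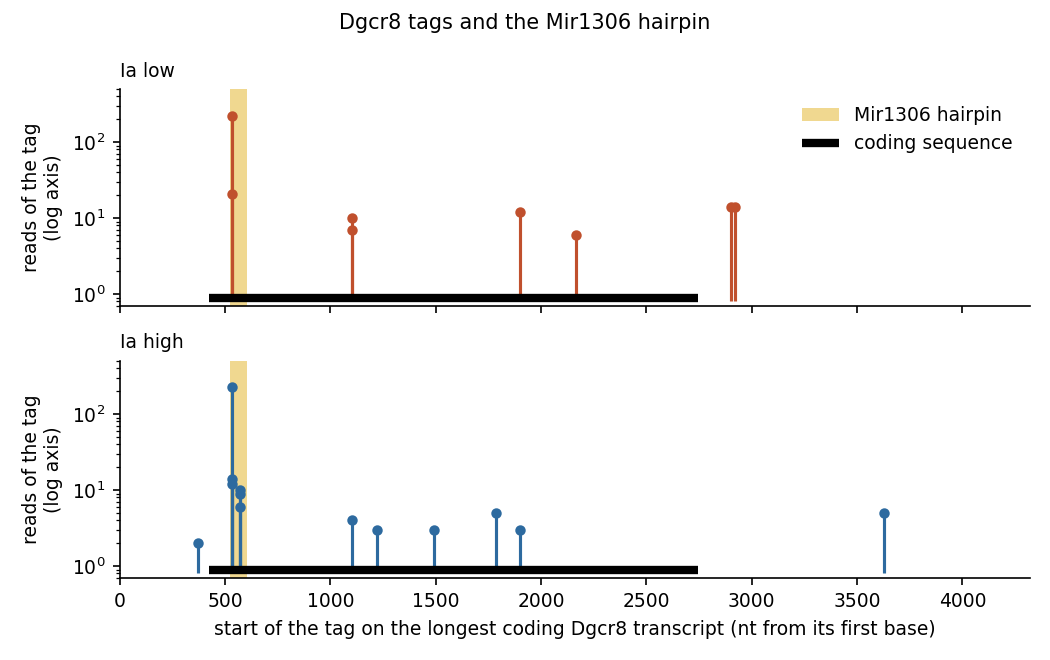
Start of each Dgcr8 tag on the longest coding transcript (horizontal axis, nt from the first base) and its reads (vertical log axis), Ia low above and Ia high below. The shaded band is the Mir1306 hairpin and the black bar the coding sequence; 1 Ia low tag that matches only another transcript is not drawn. The tags inside the band reach 218 reads in Ia low and 224 in Ia high, and those outside it stay far below.

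Xpo5, the carrier of the hairpin precursors, lies on chr17:46202782-46243598 (plus strand). It had 9 tags in Ia low and 15 in Ia high with 84 reads in each library. That is 6.32 per 100000 in Ia low and 4.36 in Ia high, a ratio of 1.45 (0.559 to 3.53). The Xpo5 interval holds 2-fold on the higher side.

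Dicer1, the RNase of the last cut, lies on chr12:104687742-104751952 (minus strand). It had 18 tags in Ia low and 42 in Ia high, 12.6 per 100000 in Ia low and 12.2 in Ia high. The ratio was 1.03 (0.561 to 1.84), so that the whole interval stays within 2-fold both ways. The tags were mostly coding, 14 of 18 in Ia low and 34 of 42 in Ia high. They covered 3.54% of the longest coding transcript in Ia low and 7.49% in Ia high. No identical Dicer1 tag was in both libraries. Drosha, Dgcr8, Xpo5 and Dicer1 together had 43 tags in Ia low and 96 in Ia high, a ratio of 1.08 (0.737 to 1.56), also within 2-fold.

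The Argonautes carried the most tags, and most of these were from Ago2. Ago2 lies on chr15:73095844-73184935 (minus strand) and had 46 tags in Ia low and 165 in Ia high. These were 26.4% of the machinery tags in Ia low (20.1 to 33.6) and 34.5% in Ia high (30.3 to 39.0). Scaled, Ago2 had 32.3 tags per 100000 in Ia low and 48.0 in Ia high, a ratio of 0.673 (0.474 to 0.938). The interval excludes 1, the only one of the 10 to do so, but the ratio does not reach 2-fold. Of all 7132 measured genes, 8.83% were higher and 11.4% lower by 1.5-fold or more with an interval that excluded 1. A single such interval among 10 genes therefore does not set the machinery apart. For tags of 20 to 24 nt alone the Ago2 log2 ratio was -1.03 (ratio interval 0.251 to 0.883), which passed the rule, and for tags of 25 to 30 nt it was -0.30, with an interval that included 1. With the median of all genes set to 0 the Ago2 interval also included 1 (0.524 to 1.04). Of the Ago2 tags, 3 in Ia low and 18 in Ia high also matched a transcript of a non-coding gene, mostly the pseudogene Gm6088, and without them the log2 ratio was -0.50.

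Ago1 (chr4:126435012-126468583), Ago3 (chr4:126331704-126429556) and Ago4 (chr4:126489541-126533472) are neighbours on the minus strand of chromosome 4. Ago1 had 9 tags in Ia low and 19 in Ia high, a ratio of 1.14 (0.456 to 2.65). Ago3 had 13 tags in Ia low and 29 in Ia high, a ratio of 1.08 (0.516 to 2.15). Ago4 had 3 tags in Ia low and 11 in Ia high, a ratio of 0.658 (0.118 to 2.49), and its Ia low level of 2.11 per 100000 equals the floor of 3 tags. None of these 3 ratios is told apart from 1 at this depth. The 4 Argonautes together had 71 tags in Ia low and 224 in Ia high, a ratio of 0.765 (0.577 to 1.004). Without Ago2, the other 9 machinery genes had 128 tags in Ia low and 313 in Ia high, a ratio of 0.987 (0.797 to 1.22), a check chosen after the values were seen.

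The scaffolds followed Ago2 in number. Tnrc6b, on chr15:80711313-80941085 (plus strand), had 38 tags in Ia low and 106 in Ia high, a ratio of 0.866 (0.581 to 1.26). Tnrc6a, on chr7:123123885-123195296 (plus strand), had 22 tags in Ia low and 52 in Ia high, a ratio of 1.02 (0.591 to 1.71). Both intervals lie within 2-fold both ways, as does that of Dicer1 and of no other machinery gene taken singly. Such an interval was found for 969 of all 7132 measured genes, and its width depends on the number of tags. Tnrc6b holds a second annotated hairpin, Mir5113, in the 3' UTR of its longest coding transcript. The hairpin had 0 reads in Ia low and 27 reads of 3 tags in Ia high. Outside it, Tnrc6b had 38 tags in Ia low and 103 in Ia high, a ratio of 0.891 (0.597 to 1.30).

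**Figure D3:**
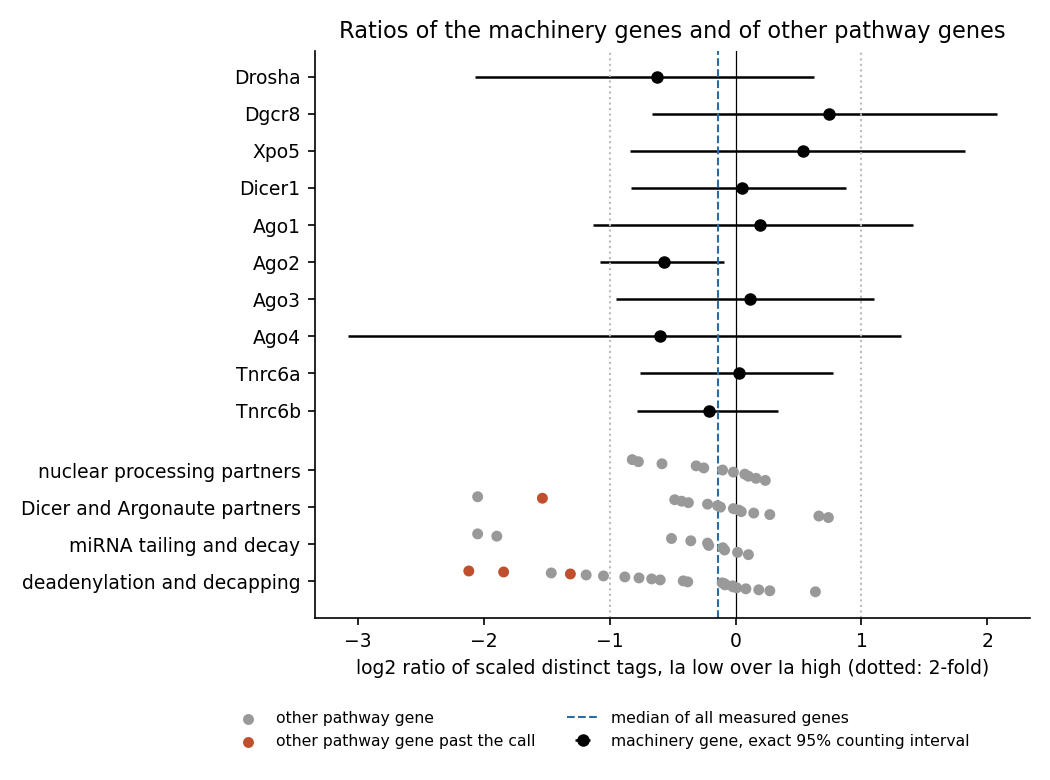
Log2 ratio of scaled distinct tags, Ia low over Ia high, for each machinery gene (black points, bars exact 95% counting intervals) and for the other genes of the pathway by list (grey, or orange where at least 2-fold with an interval that excludes 1). The dashed line is the median of all measured genes at -0.14 and the dotted lines mark 2-fold. None of the 10 machinery genes and 4 of the other genes passed the rule.

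The transcripts differ in length, so levels were compared between genes only per kb of sequence unique among protein-coding genes, as tags per kb and 100000 mRNA tags. In Ia low the order was Ago2 (2.35), Tnrc6a (1.90), Dgcr8 (1.58), Tnrc6b (1.56), Dicer1 (1.29), Xpo5 (1.25), Drosha (1.08), Ago1 (0.899), Ago3 (0.592) and Ago4 (0.325). The intervals of all neighbours in that order overlapped. In Ia high it was Ago2 (3.50), Tnrc6a (1.86), Tnrc6b (1.80), Drosha (1.66), Dicer1 (1.25), Dgcr8 (0.947), Xpo5 (0.863), Ago1 (0.786), Ago3 (0.547) and Ago4 (0.493). The Ago2 interval in Ia high (2.98 to 4.07) lay above that of every other machinery gene, and all later neighbours overlapped. With tags inside miRNA hairpins counted, Ago2 and Tnrc6a were first and second and Ago1, Ago3 and Ago4 last in both libraries. Only 7 of the 9 Dgcr8 tags in Ia low and 7 of the 13 in Ia high lay outside the Mir1306 hairpin. The place of Dgcr8 in both orders therefore rests partly on miRNA tags, and it would be lower in Ia high without them. The Ago2 interval in Ia low (1.72 to 3.14) lay above those of Ago1, Ago3 and Ago4 only.

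The lengths of the machinery tags were close to those of other mRNA tags. At 22 nt, where 50.7% of miRNA hairpin reads lay in Ia low and 48.6% in Ia high, there were 11.5% of machinery tags in Ia low and 10.7% in Ia high. Tags of 25 to 30 nt were 64.9% of the machinery tags in Ia low (57.4 to 72.0) and 51.5% in Ia high (46.9 to 56.0), beside 63.9% and 51.0% of the tags of all other genes in Ia low and in Ia high. The shift to longer tags in Ia low was thus seen for other mRNAs too, and with each length scaled to its own total the summed log2 ratio of the machinery was -0.21, against -0.19 without that step.

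**Figure D4:**
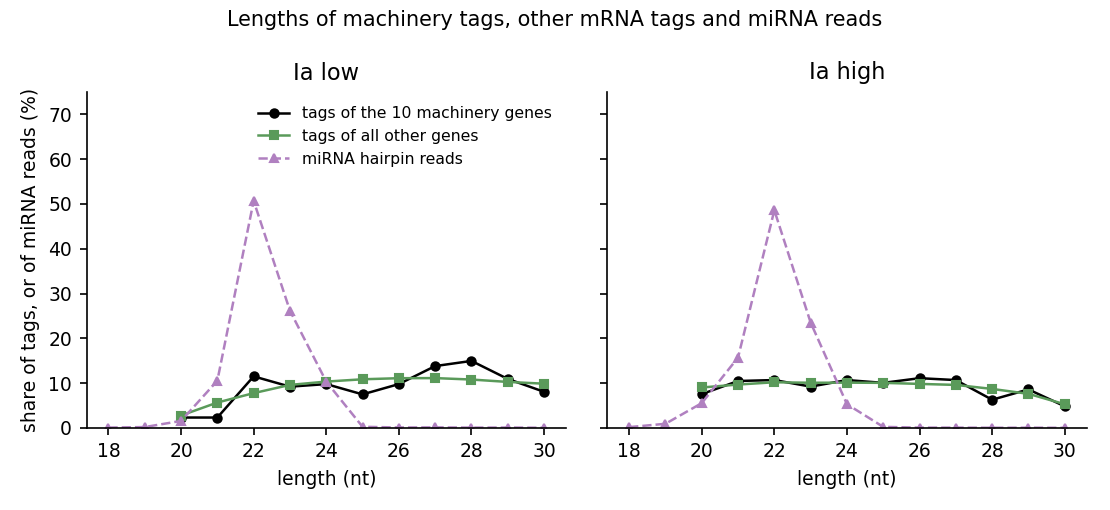
Share of tags, or of miRNA reads, at each length from 18 to 30 nt in Ia low (left) and Ia high (right), for the 10 machinery genes (black, 174 and 478 tags), all other genes (green) and miRNA hairpin reads (purple, dashed). The miRNA reads peak at 22 nt, and the machinery tags are spread over all lengths counted, with 11.5% in Ia low and 10.7% in Ia high at 22 nt.

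Along the transcripts, 48.3% of the machinery tags in Ia low (40.6 to 56.0) and 52.1% in Ia high (47.5 to 56.7) lay in the 3' UTR. For all other genes the shares were 33.9% in Ia low and 33.7% in Ia high. The machinery transcripts have long 3' UTRs, which make up 57.1% of the sequence of their longest coding forms. Ago2 had the most such tags. Of its tags, 35 of 46 in Ia low and 132 of 165 in Ia high were in the 3' UTR, which is 11064 of its 13800 nt. Tnrc6a was the opposite, with 12 of 22 tags in Ia low and 39 of 52 in Ia high in the coding sequence and 5 in Ia low and 8 in Ia high in the 3' UTR, and its 3' UTR is shorter than its coding sequence (2345 against 5691 nt).

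A first base T was found in 39.7% of machinery tags in Ia low (32.3 to 47.3) and 40.4% in Ia high (35.9 to 44.9), where T makes up 26.6% of the machinery transcripts. A first base C was found in 5.17% in Ia low and 9.21% in Ia high, where C makes up 23.3%. The same lean was present in the tags of all other genes, with T first in 36.9% in Ia low and 37.4% in Ia high and C first in 8.97% in Ia low and 9.42% in Ia high. The machinery intervals for T included these values in both libraries.

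Few tags were identical in both libraries. Of the machinery tags, 17 were in both, which is 9.77% of those in Ia low (5.80 to 15.2) and 3.56% of those in Ia high (2.09 to 5.63). For all other genes the shares were 20.01% in Ia low and 8.29% in Ia high. The 17 tags were 5 of Ago2, 5 of Tnrc6b, 4 of Tnrc6a, 2 of Dgcr8 and 1 of Ago4. The 2 Dgcr8 tags were the Mir1306 tags, and none was from Drosha, Xpo5, Dicer1, Ago1 or Ago3. Tags that differ at an end are not counted here, although they can come from the same site. At nt 4436 of the Drosha transcript, for example, a tag of 27 nt began in Ia low and one of 28 nt in Ia high, and at nt 2195 of Dicer1 a tag of 25 nt in Ia low and one of 26 nt in Ia high.

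**Figure D5:**
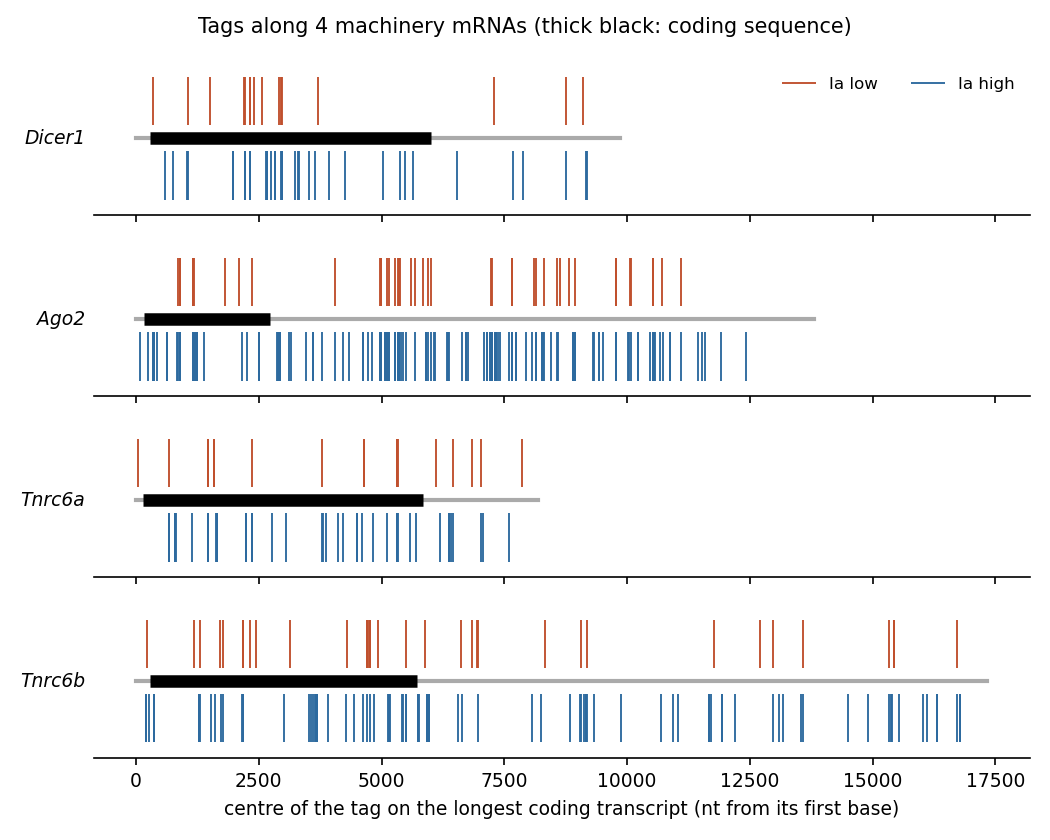
Centres of the tags of Dicer1, Ago2, Tnrc6a and Tnrc6b along the longest coding transcript of each (horizontal axis, nt from the first base), with Ia low ticks above and Ia high ticks below the transcript. The thick black bar is the coding sequence. Ago2 tags spread along the long 3' UTR, while Dicer1 and Tnrc6a tags lie mostly in the coding sequence.

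Among the proteins that work with the machinery, 66 other genes in 4 lists were examined and 58 had 10 or more tags. None was called higher in Ia low and 4 were called lower, beside 6.21% and 8.51% of all measured genes. Together the 66 genes had 1998 tags in Ia low and 5276 in Ia high, a ratio of 0.914 (0.868 to 0.963), and the median log2 ratio of the 58 was -0.18, beside -0.14 over all genes. The 4 were Fmr1, Cnot4, Cnot6 and Pabpc4.

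The 11 nuclear partners, all measured, had a median log2 ratio of -0.10, and none was called. The helicase Ddx5, a Drosha cofactor, had 281 tags in Ia low and 645 in Ia high, a ratio of 1.05 (0.911 to 1.21). Ddx5 had more tags than Drosha or Dgcr8, and its interval lies well within 2-fold, although 144 Ddx5 tags in Ia low and 337 in Ia high also matched non-coding genes.

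Of 20 partners of Dicer and the Argonautes, 15 were measured, with a median of -0.12. Fmr1, an RNA-binding translational repressor found in Argonaute complexes, was lower in Ia low, with 6 tags in Ia low and 42 in Ia high, a ratio of 0.345 (0.120 to 0.815). The call was lost in both length classes, with intervals of 0.0301 to 1.05 for tags of 20 to 24 nt and 0.111 to 1.39 for tags of 25 to 30 nt. Among the chaperones that load Argonautes, Hsp90ab1 had 135 tags in Ia low and 316 in Ia high, a ratio of 1.03 (0.837 to 1.27), but by reads its log2 ratio was -0.49 (ratio interval 0.598 to 0.847). Its relative Hsp90aa1, named after its values were seen, had 61 tags in Ia low and 206 in Ia high, a ratio of 0.715 (0.528 to 0.956). Hspa8 had 284 tags in Ia low and 674 in Ia high, a ratio of 1.02 (0.882 to 1.17), but by reads its log2 ratio was 0.32 (ratio interval 1.19 to 1.31). Of its tags, 211 in Ia low and 543 in Ia high also matched non-coding genes, among them the snoRNA genes Snord14c, Snord14d and Snord14e. Without the shared tags the Hspa8 log2 ratio was 0.43 (ratio interval 0.998 to 1.81), and by reads 0.63 (1.43 to 1.68).

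Of 12 genes of miRNA tailing and decay, 10 were measured, with a median of -0.22 and none called. The terminal uridylyltransferase Tut7 had 32 tags in Ia low and 72 in Ia high, a ratio of 1.07 (0.684 to 1.65). The exonuclease Xrn2 had 36 tags in Ia low and 86 in Ia high, a ratio of 1.01 (0.665 to 1.51).

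Of 23 genes of deadenylation and decapping, the step that Tnrc6 proteins recruit, 22 were measured, with a median of -0.40, and 3 were lower in Ia low. The deadenylase Cnot6 had 15 tags in Ia low and 90 in Ia high, a ratio of 0.402 (0.216 to 0.700). Cnot4, an ubiquitin ligase of the CCR4-NOT complex, had 3 tags in Ia low and 26 in Ia high, a ratio of 0.279 (0.0540 to 0.909). The poly(A)-binding protein gene Pabpc4 had 2 tags in Ia low and 21 in Ia high, a ratio of 0.230 (0.0261 to 0.941), but 2 of these in Ia low and 18 in Ia high also matched non-coding genes. The complex's scaffold Cnot1 had 75 tags in Ia low and 192 in Ia high, a ratio of 0.943 (0.712 to 1.24). The more abundant poly(A)-binding protein gene Pabpc1 had 167 tags in Ia low and 381 in Ia high, a ratio of 1.06 (0.877 to 1.27). The calls in this list rest on few tags in Ia low. The Cnot6 call was lost for tags of 20 to 24 nt. Those of Cnot4 and Pabpc4 were lost in both length classes, with the median of all genes set to 0 and with transcripts of the protein-coding type only. The Cnot4 call was also lost among tags with 2 or more reads, and that of Pabpc4 by reads, and without the tags shared with non-coding genes Pabpc4 had too few tags to be measured.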

How the data were processed

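The deposited files hold, for each of 2 libraries, counts of reads per distinct sequence (tag) of 18 to 44 nt as the authors left them, unscaled. Per the labels' protocols, small RNA under 30 bases was gel-purified, ligated to adaptors and amplified for 12 cycles. The labels name no trimming, filtering or aligner. GENCODE M21 transcripts (GRCm38) were searched for identical sense matches of tags of 20 to 30 nt, with Python 3.11.15, numpy 2.4.6, pandas 2.3.3, scipy 1.17.1 and numba 0.67.0. A tag counted when it matched exactly 1 protein-coding gene, and 119 machinery tags shared with another were left out. These were 61 in Ia low and 93 in Ia high, beside 174 and 478 kept, so relatively more were lost in Ia low. A ratio is the share of distinct tags in Ia low over that in Ia high, with its exact conditional binomial 95% interval. It was called at 2-fold or more with an interval that excluded 1, for genes with 10 or more tags in both libraries together, and a side at 0 was set to 3. miRNA reads are tags of 18 to 30 nt inside 1178 annotated hairpins. Unique sequence was counted in windows of 25 nt. Matching was checked on the real tags by a plain text search of the machinery transcripts. Intervals were tested on simulated counts that held counting error only. Named are the machinery genes, the called genes of each list and its 2 genes with most tags, and the 3 genes nearest to the summed ratio; 1 gene so named is not reported here. The members and lists were chosen with earlier results of these data known. Alternatives covered the unit counted, tag length, transcripts, scaling, depth, fold and filter.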

Additional observations from a re-analysis of the deposited data

Results flagged for a closer look

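Machinery tags also appeared at lengths outside the window counted above. Tags of 31 to 44 nt that hold a stretch unique to 1 machinery gene numbered 53 in Ia low (374 reads) and 13 in Ia high (39 reads). They were looked at because a signal stood above 3 counts in data that no comparison used. All tags of that length numbered 186623 in Ia low and 49411 in Ia high, and took 14.3% of all reads in Ia low and 1.63% in Ia high. Tnrc6b had 15 such tags in Ia low and 3 in Ia high, Ago2 13 in Ia low and 6 in Ia high, and Ago4 0 in Ia low and 1 in Ia high. Tags of 18 and 19 nt ran the other way, with 1 in Ia low and 55 in Ia high, where the libraries held 11368 and 112282 tags of these lengths in Ia low and in Ia high.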

How the results depend on the processing

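None of the 10 machinery genes was called higher under any alternative run, and 4 of 147 single-gene values were called lower. Scaled to all reads, the summed log2 ratio was -1.20 and the median -0.98. There 3 of 10 machinery genes (Ago2, Drosha and Tnrc6b) and 40 of 58 other pathway genes were lower. Of all 7132 measured genes, 46.4% were lower on that scale. That scaling compares distinct tags with reads, and the libraries differ in reads per tag. For tags of 20 to 24 nt, 1 machinery gene (Ago2) and 0 pathway genes were lower, beside 5.38% of all genes. For tags of 25 to 30 nt, 1 pathway gene was higher and 1 lower, beside 6.94% and 7.91% of all genes. With the fold at 1.5, 1 pathway gene was higher, beside 8.83% of all genes. At that fold 6 were lower, against 4 at 2-fold, beside 11.4% of all genes. With the median of all genes set to 0, 2 pathway genes were lower, beside 6.39% of all genes. With the fold at 3 also 2 were lower, beside 5.38%. The cause of these changes was not tested otherwise. Under the others the machinery median lay between -0.11 and 0.18. No paired analysis was possible because each population had 1 library, and no replicate could be left out. Depth limits 7 of the 10 genes, whose intervals hold a 2-fold difference in at least 1 direction.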

Other observations

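Antisense tags were few for the machinery genes and for other mRNAs alike. The machinery had 0 in Ia low and 8 in Ia high, beside 174 sense tags in Ia low and 478 in Ia high. That is 0% of its sense and antisense tags in Ia low and 1.65% in Ia high. Over all protein-coding genes, the same share was 1.86% in Ia low and 1.53% in Ia high.

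Many other mRNAs had a ratio like that of the summed machinery. Of 1170 other genes with 100 or more tags, 145 (12.4%) had a log2 ratio within 0.1 of the summed machinery ratio of -0.19. The nearest were Ubr4 (83 tags in Ia low and 228 in Ia high), Vps35 (28 in Ia low and 77 in Ia high) and Rpl6 (39 in Ia low and 107 in Ia high), by their log2 ratio over 2 libraries, which makes likeness a weak description.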
